A study of Mus musculus with 37 samples.

Results

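Cmtm6, Dusp22, Diras2, Katnal1, Nrep, Ralb and Arl2bp are 7 mouse genes, of the 24411 genes in each deposited table, that were picked because their RNA was higher in 1 or both of 2 Tet2 knockdowns of cultured neurons. Each was found by its symbol in all 4 tables of the series. The genes were chosen by their rise in 1 or both knockdown tables, so the knockdown values are given below as a description, and calls on them restate the choice. The comparisons that the choice did not use are hippocampal nuclei of Tet2 conditional knockouts and cultured neurons overexpressing Tet2. The data went against a rise of all 7 in both knockdowns. The fold change was positive in both for 6 genes, and Nrep lay within its error of 0 in the second. Treated and control libraries were fully separated in both knockdowns for 2 genes, Dusp22 and Diras2. Over all genes tested, 0.863% lay wholly above the controls in the first knockdown and 5.70% in the second. The share that did so in both was not computed.

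The series holds 37 polyadenylated RNA libraries of mouse neurons, in 4 experiments designed to lower or raise Tet2, a dioxygenase that oxidises methylated cytosine in DNA. The first knockdown used C57/Bl6 primary neurons of embryonic day 17 under lentivirus, with 6 shLuciferase and 6 shTet2 libraries. The second used primary neurons in vitro, labelled shLuc (n = 6) or Tet2 KD (n = 6), and the overexpression experiment used such neurons labelled synGFP (n = 3, called GFP below) or Tet2 OE (n = 3). The nuclei came from the hippocampus of C57/Bl6 mice, 4 of them WT and 3 of them CamKIIaCreERt2;Tet2 cKO, and the design text gives floxed Tet2 alleles to both of these groups. The Cre recombinase of these knockouts is an inducible form driven from the CamKIIa promoter, which is active mainly in excitatory forebrain neurons, so other neurons in a nuclear preparation would keep Tet2. The labels give no strain for the second knockdown or the overexpression cultures, and no animal ages. They do not say whether libraries of 1 group came from separate cultures or animals, so a p-value here measures only the spread between these libraries, which may be technical.

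TET enzymes act mostly at cytosines followed by guanine (CpG), and promoters rich in CpG are as a rule unmethylated in neurons. The 7 genes have no single pathway in common. Ralb and Diras2 encode small GTPases of the Ras superfamily, molecular switches of vesicle traffic and signalling, and Arl2bp encodes a binding partner of the small GTPase Arl2. Katnal1 encodes a relative of the katanin subunit that severs microtubules, and Dusp22 an atypical dual-specificity phosphatase that acts on the JNK kinase pathway. Cmtm6 encodes a membrane protein that keeps PD-L1 (gene Cd274) at the cell surface. Nrep encodes a small protein of regenerating neurons that has been tied to TGF-beta signalling.

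In the GENCODE annotation of build GRCm38 (mm10), all 7 are protein-coding genes. Cmtm6 (ENSMUSG00000032434.9) lies at chr9:114731116-114749344 on the plus strand, Dusp22 (ENSMUSG00000069255.13) at chr13:30659999-30711231 on the plus strand and Diras2 (ENSMUSG00000047842.7) at chr13:52504380-52531279 on the minus strand. Katnal1 (ENSMUSG00000041298.15) lies at chr5:148871584-148929320 on the minus strand, Ralb (ENSMUSG00000004451.14) at chr1:119470305-119504794 on the minus strand and Arl2bp (ENSMUSG00000031776.17) at chr8:94666600-94674425 on the plus strand. Nrep (ENSMUSG00000042834.15) is read from the minus strand. The Katnal1 locus overlaps Gm42791, a coding gene model on its own strand, and the pseudogene Gm43600 on the other, and a processed pseudogene, Gm29454, lies on the other strand within Ralb. None of these models is among the deposited genes under these names, so no count was given to them. Whether their reads were counted to Katnal1 or Ralb is not known, since the counting rule is not given in the sources used here.

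The promoters are shown because CpG sites are where TET enzymes work. RefSeq promoter windows (GRCm38.p6) were matched for 6 of the 7 genes. In the 250 bases before the RefSeq start site, Dusp22 held 38 CpG, more than 98.1% of 32851 promoters, against a median of 6. Arl2bp held 23, Katnal1 21, Ralb 18 and Cmtm6 17, each above that median, and Diras2 held 6. For Arl2bp, Katnal1 and Diras2 these bases lay inside a GENCODE gene, with 0 of them outside GENCODE exons. Their counts therefore describe annotated exon sequence. Methylation was not measured in these files, so none of these counts says whether a site was methylated. For 3 genes the part of the window outside every GENCODE exon follows, 5′ to 3′ on the gene's strand, with CG in capitals. It spans chr13:30659809-30659998 (plus) for Dusp22 with 26 CpG, chr1:119504795-119505032 (minus) for Ralb with 16 and chr9:114730953-114731115 (plus) for Cmtm6 with 6.
Dusp22: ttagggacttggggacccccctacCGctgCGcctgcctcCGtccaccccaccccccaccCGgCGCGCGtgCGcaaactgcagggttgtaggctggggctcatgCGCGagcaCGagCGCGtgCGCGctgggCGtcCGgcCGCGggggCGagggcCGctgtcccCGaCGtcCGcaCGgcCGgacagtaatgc
Ralb: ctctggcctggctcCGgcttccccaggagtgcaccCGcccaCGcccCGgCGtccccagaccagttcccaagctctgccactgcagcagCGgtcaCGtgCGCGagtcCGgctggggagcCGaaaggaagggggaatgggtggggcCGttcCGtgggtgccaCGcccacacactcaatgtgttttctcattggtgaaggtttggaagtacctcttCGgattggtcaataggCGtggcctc
Cmtm6: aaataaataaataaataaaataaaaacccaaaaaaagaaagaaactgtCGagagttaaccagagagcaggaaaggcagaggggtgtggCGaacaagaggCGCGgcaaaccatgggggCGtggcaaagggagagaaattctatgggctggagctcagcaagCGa

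The Dusp22 run holds 26 CpG in 190 bases, and the Cmtm6 run opens with an A-rich stretch without CpG. Short motifs were searched on both strands of the 250 bases. The GC box GGGCGG was in the windows of Ralb, Cmtm6 and Dusp22, and in 32.7% of all promoters. The cAMP-response half-site TGACG was in those of Arl2bp and Cmtm6, and in 17.8% of all promoters, and the E-box CACGTG was in that of Ralb alone of the 6, and in 6.02% of all. The matches of Ralb lie in the bases printed above. Those of Cmtm6 and Dusp22 do not lie within the printed bases, and that of Arl2bp lies in annotated exon sequence. None of the 6 held the full cAMP-response site TGACGTCA, which contains the half-site and was in 1.55% of all promoters. A match is a description of letters and not of a bound site.

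The libraries of the first knockdown held between 2709421 and 43788798 reads and those of the second between 4785087 and 22781534. Those of the nuclei held 6377244 to 14882249, and those of the overexpression experiment 16988077 to 73220675. All values below are normalized counts, that is reads divided by 1 size factor per library, and each experiment was normalized in its own table. Tet2 itself was lower in every Tet2 KD library of the second knockdown (459 ± 74.7 in shLuc against 175 ± 87.6, SD, n = 6 each) and in every cKO nuclei library (986 ± 73.9, n = 4, against 639 ± 201.1, n = 3). It was higher in every Tet2 OE library (1724 ± 773 in GFP against 3823 ± 1538, n = 3 each). The log2 fold change of Tet2 passed in the second knockdown (-1.51, adjusted p = 0.000113) and did not in the nuclei (-0.67, adjusted p = 0.632) or with overexpression (1.20, adjusted p = 0.116, all in limma). Which part of the gene the cKO allele loses is not given in the sources used here. In the first knockdown it was not lower (461 ± 190 in shLuciferase against 504 ± 149 in the libraries labelled shTet2, n = 6 each). Directions drawn from the first knockdown therefore rest on the label alone, and its treated samples are called the libraries labelled shTet2 throughout.

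**Figure D1:**
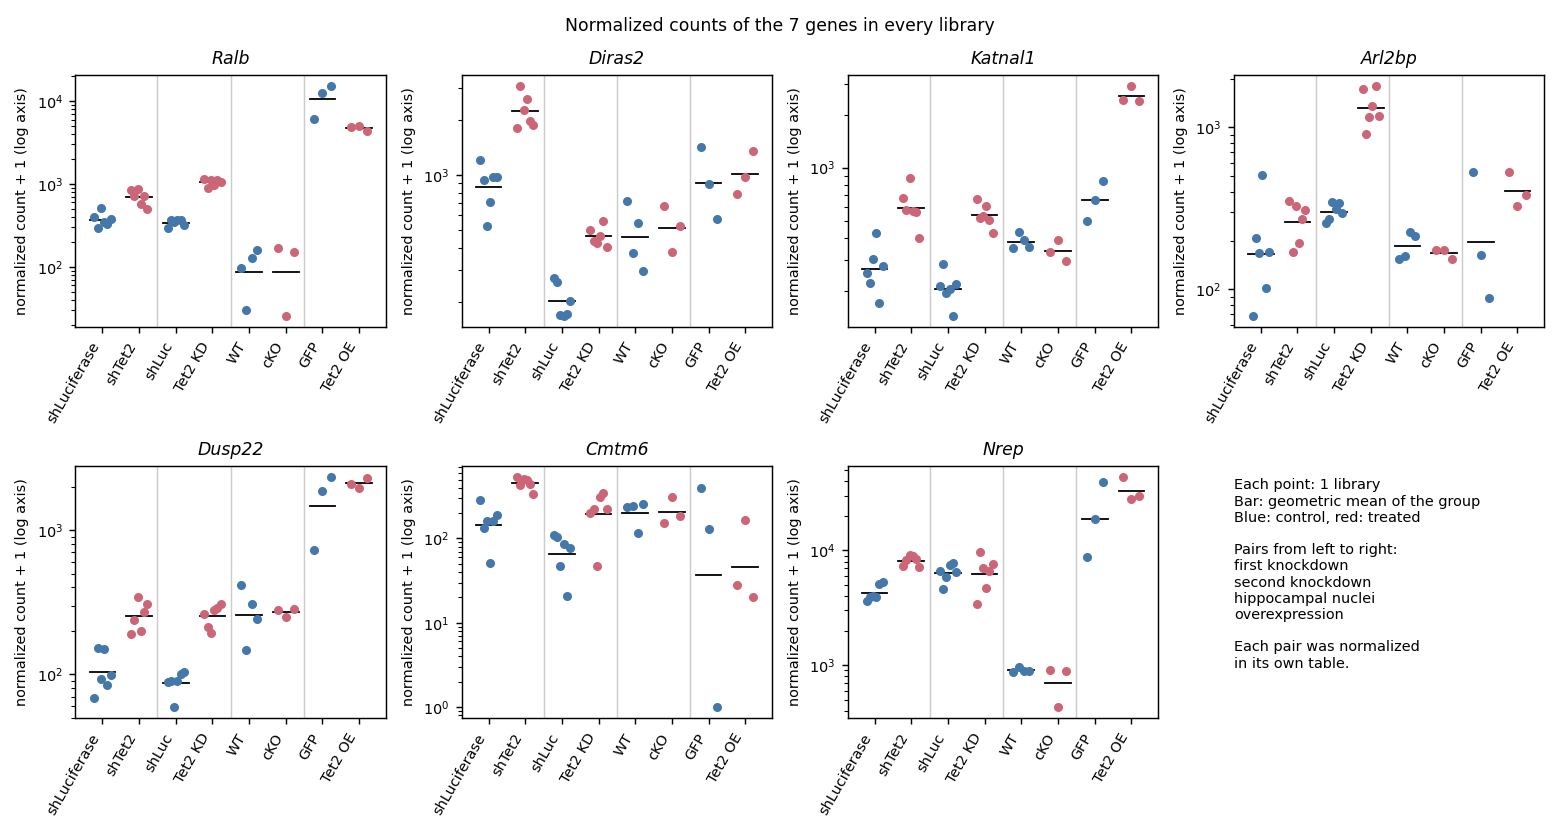
Normalized counts plus 1 (log axis) of the 7 genes in all 37 libraries, 1 point per library and 1 panel per gene, with the geometric mean of each group as a bar. In the knockdown pairs the treated points of Dusp22 and Diras2 lie above every control point, and in the overexpression pair the same holds for Katnal1 only, while Ralb lies below.

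Ralb is the GTPase that links Ras signalling to the exocyst, the complex that tethers secretory vesicles. Its normalized count in the second knockdown ran from 295 to 366 with a median of 354 in shLuc libraries, and from 900.5 to 1143 with a median of 1081 in Tet2 KD libraries. No libraries overlapped, and the mean was 3.08 times higher (log2 fold change 1.62, SE 0.10). In the first knockdown it ran from 291 to 510 (median 360.3) in shLuciferase libraries and from 496 to 870.0 (median 712) in the libraries labelled shTet2, with a log2 fold change of 0.90 (SE 0.19). Here the groups touched, because the highest control lay just above the lowest treated library.

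Diras2, a brain-enriched Ras-like GTPase, was fully separated in both knockdowns. It ran from 525 to 1206 (median 955) in shLuciferase libraries and from 1809 to 3069 (median 2128) in the libraries labelled shTet2, a mean 2.56 times higher (log2 fold change 1.38, SE 0.19). Its range in the second knockdown was 168 to 270.0 (median 188) in shLuc and 399.9 to 558 (median 447) in Tet2 KD libraries, 2.23 times higher (log2 fold change 1.17, SE 0.14).

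Arl2bp, the partner of the GTPase Arl2, differed most between the knockdowns. In the second it ran from 256 to 343 (median 303) in shLuc and from 916 to 1802 (median 1273) in Tet2 KD libraries. That is 4.49 times higher (log2 fold change 2.13, SE 0.15), above the other 6 genes in either knockdown. In the first it ran from 67.7 to 504 (median 168) in shLuciferase libraries and from 168 to 348 (median 289) in the libraries labelled shTet2, so the groups overlapped (log2 fold change 0.65, SE 0.37). The shLuciferase library numbered 4, at 504, lay above every treated library, and without it the log2 fold change was 0.97. The difference between the knockdowns was not tested, since both chose the genes.

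Katnal1, the katanin-like microtubule-severing ATPase, ran from 169 to 423 (median 264) in shLuciferase and from 396 to 873 (median 569) in libraries labelled shTet2, with a log2 fold change of 1.16 (SE 0.23). A single pair of libraries crossed there, the lowest treated and the highest control. For the second knockdown the range was 143 to 283 (median 208) in shLuc and 424 to 661 (median 523) in Tet2 KD libraries, with no overlap (log2 fold change 1.38, SE 0.15).

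Dusp22, the phosphatase with the CpG-dense promoter printed above, was low in both sets of control cultures and separated in both knockdowns. It ran from 67.7 to 152 (median 95.1) in shLuciferase and from 189 to 344 (median 253) in libraries labelled shTet2 (log2 fold change 1.29, SE 0.29). Values in the second knockdown were 58.5 to 103 (median 88.4) in shLuc and 192 to 309 (median 269) in Tet2 KD libraries (log2 fold change 1.55, SE 0.16).

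Cmtm6, the membrane partner of PD-L1, ran from 50.4 to 283 (median 160) in shLuciferase and from 334 to 531 (median 467) in libraries labelled shTet2, with no overlap (log2 fold change 1.63, SE 0.31). Its values in the second knockdown were 20.0 to 108 (median 80.3) in shLuc and 46.5 to 342 (median 223) in Tet2 KD libraries (log2 fold change 1.58, SE 0.42). The library at 46.5 was the only Tet2 KD library within the control range, and the other 5 lay above the highest control. Without it the log2 fold change was 1.98.

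Nrep, the gene of the regeneration-related protein, was the most abundant of the 7 and was higher in the libraries labelled shTet2 alone. It ran from 3603 to 5294 (median 3961) in shLuciferase and from 7155 to 9179 (median 8309) in libraries labelled shTet2, with no overlap (log2 fold change 0.94, SE 0.13). In the second it ran from 4590 to 7838 (median 6561) in shLuc and from 3424 to 9750 (median 6791) in Tet2 KD libraries. The treated libraries there spread to both sides of the controls, and the log2 fold change was -0.05 (SE 0.19, 95% confidence interval -0.45 to 0.35).

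Over the 7 genes the median log2 fold change was 1.16 in the first knockdown and 1.55 in the second, against 0.09 and -0.02 over all genes tested. limma called 6 of the 7 higher in the first knockdown, where 0.655% of 18315 genes were called higher, and 6 of 7 in the second, where the share was 12.6% of 16164 genes. None was called lower, where 1.28% and 13.2% of all genes were. The uncalled gene was Arl2bp in the first and Nrep in the second. Every treated library lay above every control for 4 of the 7 in the first knockdown (0.863% of all genes) and for 5 in the second (5.70% of all genes), and below them for none, where 1.39% and 6.53% of all genes did so. A positive fold change was held by 7 and 6 of the 7, against 56.5% and 48.0% of all genes. Called higher in both were 5 of the 7, among 53 such genes of the 15796 tested in both. These counts restate the choice of the genes and are read no further.

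In bulk RNA, fewer cells of a type and less RNA per cell cannot be told apart. Of 44 markers in 8 lists of cell types, 1 was called higher and 3 lower in the first knockdown, and 4 higher and 13 lower in the second. Over all genes tested 0.655% were called higher and 1.28% lower in the first knockdown, and 12.6% and 13.2% in the second. Of the 7 astrocyte markers 3 were lower in the second knockdown, with a summed normalized count of 10378 to 12234 in shLuc against 7390 to 9424 in Tet2 KD libraries. The 5 general neuron markers, 2 of them called lower, summed to 41881 to 51599 against 31266 to 39297. Tubb3 was the largest of them, with a median of 29558 in shLuc and 22022 in Tet2 KD libraries. The medians were 9654 and 6916 for Snap25, 4012 and 3932 for Syt1 and 769 and 581 for Map2. That of Rbfox3 was higher in Tet2 KD libraries (996 and 1247). The 7 vascular and meningeal markers, 3 of them called lower, summed to 169.9 to 282 against 76.2 to 149, with Flt1 at 0 in every Tet2 KD library. Among the 5 progenitor markers 1 was called higher and 1 lower, and their sum was 275 to 350.03 against 609 to 1001. The median of Nes was 85.8 in shLuc and 457 in Tet2 KD libraries, and that of Sox2 33.2 and 37.9. The medians of Top2a (85.6 and 49.0), Mki67 (50.3 and 45.7) and Pax6 (66.1 and 59.3) were lower in Tet2 KD libraries. The 4 excitatory markers (1 higher, 2 lower) summed to 8621 to 10213 against 5768 to 8564, and the 7 oligodendrocyte lineage markers (2 lower, Mag at 0 in every Tet2 KD library) to 3606 to 4563 against 1831 to 4925. The 3 GABAergic markers, 2 of them higher, overlapped in their sums (4869 to 8207 against 5464 to 8976), as did the 6 microglia markers, none of them called (4.46 to 21.6 against 11.3 to 27.5, Cx3cr1 at 0 in all shLuc and C1qa in all Tet2 KD libraries). In the first knockdown the vascular sums did not overlap, at 367 to 657 in shLuciferase against 125 to 238 in libraries labelled shTet2 with 1 of 7 called lower, and the sums of the other 7 lists overlapped. The part of these markers in the values of the 7 genes was not tested.

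**Figure D2:**
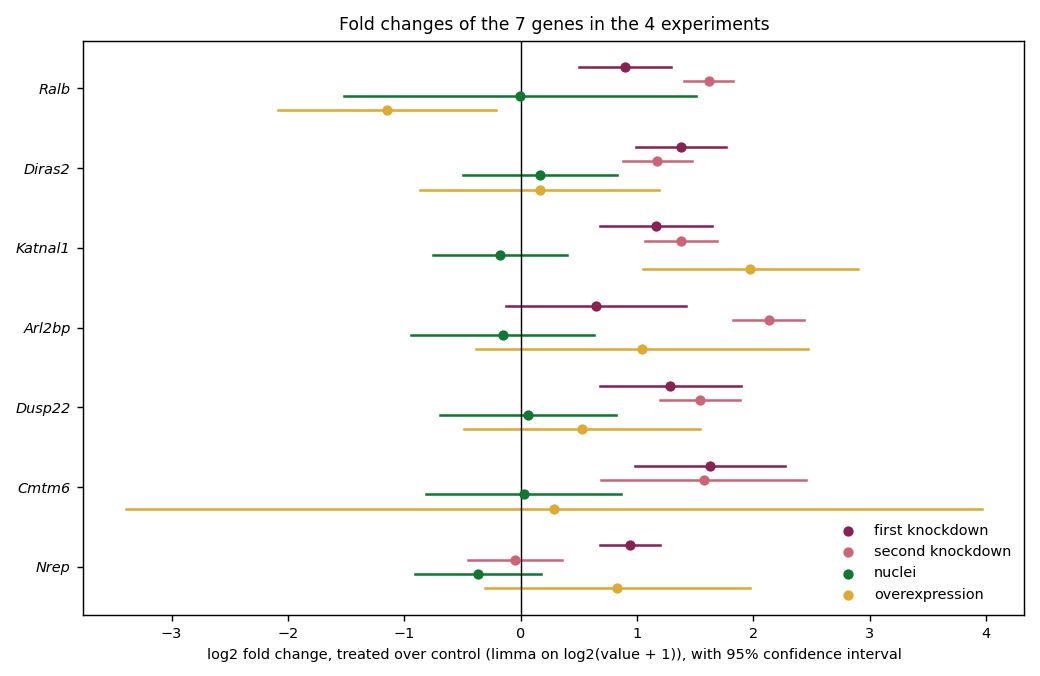
Log2 fold change, treated over control, of the 7 genes in each experiment (points) with the 95% confidence interval of limma (lines), on the log2(value + 1) scale. Knockdown points lie between 0.65 and 2.13 except Nrep in the second at -0.05, every interval of the nuclei includes 0, and in the overexpression experiment Katnal1 lies at 1.97 and Ralb at -1.15.

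The hippocampal nuclei address whether the genes also differed between WT and Tet2 cKO tissue, in samples that the choice of genes did not use. Tet2 RNA was reduced there and not absent, with a cKO mean 0.65 times that of WT. The nuclei also held RNA of glial markers, such as Mbp with a median of 5553 in WT, so they were not neurons alone. Of the 7, 3 had a positive and 4 a negative fold change, where 44.9% of 18780 genes had a positive one. None was called by limma, where the share called was 0% of all genes, and none separated WT from cKO libraries, where 3.55% of genes lay wholly above and 3.41% wholly below. The log2 fold changes ran from -0.36 to 0.17 with a median of -0.01, against -0.09 over all genes, and adjusted p ran from 0.815 to 0.998. At an unadjusted p under 0.05, limma had 1309 genes in this experiment, and the authors' deposited table called 96 of 14543 genes with an adjusted p, none of them among the 7.

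Ralb stood at 94.6, 29.0, 126 and 157 in WT and at 169.7, 24.7 and 148 in cKO nuclei, with 1 low library in each group and the rest overlapping. Its log2 fold change of -0.01 had a 95% confidence interval of -1.52 to 1.51, so a difference as large as the 0.90 of the first knockdown was not detectable with these libraries. Diras2 stood at 716, 371, 547 and 295 in WT and at 671, 378 and 525 in cKO nuclei, with both groups over the same range (log2 fold change 0.17, interval -0.49 to 0.83, adjusted p = 0.893 in limma). Its interval ended below the 1.38 and 1.17 of the knockdowns.

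Katnal1 stood at 349.8, 427, 387 and 352 in WT and at 329, 384 and 294 in cKO nuclei. The values overlapped, and the interval of its log2 fold change of -0.18 ran from -0.76 to 0.40 (adjusted p = 0.864 in limma). Dusp22 stood at 416, 146, 304 and 243 in WT and at 279.6, 250.4 and 282 in cKO nuclei, with the cKO values inside the WT range (log2 fold change 0.06, interval -0.69 to 0.82). For both genes the upper end of the interval lay below their knockdown values.

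Arl2bp stood at 153, 160.4, 225 and 212 in WT and at 173, 174 and 152 in cKO nuclei (log2 fold change -0.15, interval -0.94 to 0.63), an interval that ended below its 2.13 of the second knockdown and just below its 0.65 of the first. Cmtm6 stood at 232, 242, 115 and 257 in WT and at 151.5, 311 and 183 in cKO nuclei, again with overlap (log2 fold change 0.02, interval -0.81 to 0.86). Nrep stood at 868, 966, 889 and 896 in WT and at 907, 431 and 884 in cKO nuclei. The log2 fold change was -0.36 (interval -0.91 to 0.18). A single cKO library, at 431, lay below every WT library, and the other 2 lay within the WT range. Whether the effects in nuclei and in the knockdowns differ was not tested, since the tables were normalized separately and the knockdowns chose the genes.

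None of the 44 markers was called, where 0% of all genes were, and the sums of all 8 lists overlapped between WT and cKO libraries. The general neuron sum was 21096 to 33559 in WT and 30613 to 33202 in cKO nuclei, the excitatory neuron sum 13333 to 17520 and 12644 to 13825, and the astrocyte sum 3312 to 8092 and 3325 to 6367. The ribosomal precursor Rn45s took 18.1% to 25.9% of reads in WT and 19.6% to 27.1% in cKO nuclei.

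With Tet2 overexpressed, 1 of the 7 genes was called higher, where 6.19% of 22399 genes were, and none was called lower, where 3.77% were. The fold change was positive for 6 genes, where 35.6% of all genes had a positive one. With library totals it was positive for 3, since Cmtm6 (-0.44), Dusp22 (-0.18) and Diras2 (-0.54) turned negative, and the sign of Cmtm6 also turned in 5 other alternatives. The median of the 7 was 0.53 against -0.75 over all genes, but 0.18 over the 10043 genes with a mean of 100 or more, among which all 7 fall. Treated libraries lay wholly above the controls for Katnal1 (12.5% of all genes did) and wholly below for Ralb (19.0% did). The groups differed in depth, with 66684922 to 73220675 reads in Tet2 OE against 16988077 to 48321564 in GFP libraries, and yet 16457 to 18371 genes had a read in Tet2 OE against 18540 to 21194 in GFP libraries.

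Katnal1 rose. It stood at 499, 657 and 835 in GFP and at 2420, 2903 and 2372 in Tet2 OE libraries, so that the lowest treated library was above the highest control by more than the spread within either group. The mean was 3.87 times higher (664 ± 168 against 2565 ± 294, SD, n = 3 each), with a log2 fold change of 1.97 (SE 0.44, interval 1.05 to 2.90, adjusted p = 0.00812 in limma). The authors' deposited table gave a log2 fold change of 1.95 with an adjusted p of 0.000192. In limma the call was lost with library totals (1.27, adjusted p = 0.0517), without the GFP library numbered 5 (1.98, adjusted p = 0.0603) and without the Tet2 OE library numbered 4 (1.88, adjusted p = 0.0564). It was also lost with the column number as a block (2.02, adjusted p = 0.392). Its values were thus higher in the treated libraries of both knockdowns and of the overexpression experiment.

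Ralb stood at 6046, 12539 and 15228 in GFP and at 4865, 5020 and 4359 in Tet2 OE libraries, all treated libraries below all controls. In normalized counts the GFP libraries spread widely while the Tet2 OE libraries lay close together (11271 ± 4720 against 4748 ± 345, SD, n = 3 each). The summed normalized counts of the GFP libraries rose in the same order, from 2.25e+07 to 5.27e+07. As reads per kilobase of exon scaled to library depth, Ralb ran from 54.5 to 62.1 in GFP and from 14.4 to 19.4 in Tet2 OE libraries. The log2 fold change of the normalized counts was -1.15 (SE 0.45, interval -2.08 to -0.21). It did not pass the adjusted threshold in limma (adjusted p = 0.108). It passed with library totals (-1.85, adjusted p = 3.64e-05), with DESeq2 on the recovered reads (-1.25, adjusted p = 0.0344) and without the GFP library numbered 4 (-1.54, adjusted p = 0.0114). The authors' deposited table called it, with an adjusted p of 0.036.

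The other 5 genes overlapped between the groups. Dusp22 stood at 725, 1873 and 2319 in GFP and at 2086, 1960.5 and 2306 in Tet2 OE libraries (log2 fold change 0.53, SE 0.48, adjusted p = 0.488 in limma). Nrep stood at 8799, 18714 and 39770 in GFP and at 43347, 28121 and 30086 in Tet2 OE libraries (log2 fold change 0.83, SE 0.54, adjusted p = 0.324 in limma). The range of the GFP libraries held all 3 treated libraries for Dusp22 and 2 of the 3 for Nrep.

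Arl2bp stood at 527, 163 and 87.3 in GFP and at 528, 328 and 383 in Tet2 OE libraries (log2 fold change 1.04, SE 0.68, adjusted p = 0.321 in limma). Diras2 stood at 1414, 893 and 574 in GFP and at 782, 968 and 1349 in Tet2 OE libraries (log2 fold change 0.16, SE 0.49, adjusted p = 0.845 in limma). Cmtm6 stood at 392, 130.04 and 0 in GFP and at 26.8, 165 and 19.3 in Tet2 OE libraries. The library at 0 had no read of Cmtm6, which at 3 reads allows up to 3.27 normalized counts and covers counting error only. The log2 fold change of Cmtm6 was 0.29 with an SE of 1.75 and has no settled direction.

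In the overexpression experiment 5 of the 44 markers were called higher and 4 lower, where 6.19% of all genes were called higher and 3.77% lower. The 3 GABAergic markers (2 higher, 1 lower) had sums of 6565 to 6816 with GFP and 24736 to 30919 with Tet2, the 1 list whose sums did not overlap. The neuron sum was 54727 to 113030 against 73334 to 76942, the astrocyte sum 55871 to 185190 against 134840 to 164940 with 1 of 7 called higher, and the progenitor sum 6781 to 17759 against 8650 to 14745 with 1 of 5 called higher. The excitatory (2153 to 2980 against 1925 to 2676), vascular (653 to 1152 against 893 to 919), oligodendrocyte lineage (2499 to 8766 against 1717 to 2532, 1 higher and 2 lower) and microglia sums (25.1 to 177 against 26.5 to 66.7, 1 lower) also overlapped. Cx3cr1, P2ry12 and Tmem119 of the microglia list were at 0 in all Tet2 OE libraries. Their part in the values of Katnal1 and Ralb was not tested.

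**Figure D3:**
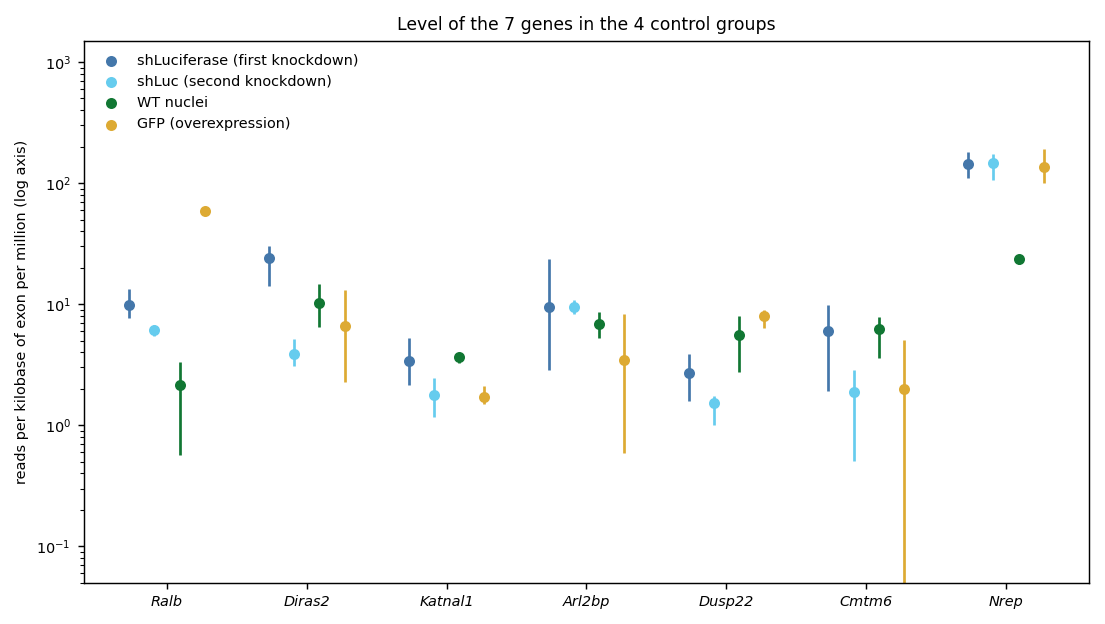
Reads per kilobase of exon, scaled to library depth (log axis), of the 7 genes in the 4 control groups, with the mean as a point and the lowest to highest library as a line (the line of Cmtm6 in GFP leaves the axis because 1 library is at 0). Nrep is highest in every group, and Ralb has the largest ratio between its highest and lowest means, from 2.13 in WT nuclei to 58.4 in GFP cultures.

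Levels of different genes were compared per length, as RPKM, the recovered reads per kilobase of annotated exon scaled to library depth. In shLuciferase cultures the order was Nrep (143 ± 27.7), Diras2 (23.9 ± 5.96), Ralb (9.79 ± 1.89), Arl2bp (9.43 ± 7.33), Cmtm6 (6.06 ± 2.61), Katnal1 (3.37 ± 1.09) and Dusp22 (2.72 ± 0.933), each a mean ± SD of 6 libraries. Nrep stood clear of the others. Diras2 (14.0 to 30.1) lay above the range of Ralb (7.70 to 13.25), but the highest Arl2bp library, at 23.6, lay within the range of Diras2. Ralb, Arl2bp and Cmtm6 did not differ beyond their spread, and neither did Katnal1 and Dusp22.

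In shLuc cultures Nrep (147 ± 24.9) was again first, followed by Arl2bp (9.57 ± 0.999), Ralb (6.14 ± 0.499) and Diras2 (3.85 ± 0.939, n = 6 each). The level of Diras2 thus lay below Ralb there and above it in the shLuciferase cultures. Cmtm6 (1.89 ± 0.900), Katnal1 (1.77 ± 0.408) and Dusp22 (1.51 ± 0.258) did not differ beyond their spread. In WT nuclei Nrep (23.5 ± 1.30) led and Ralb (2.13 ± 1.21) was last (n = 4). In GFP cultures Nrep (137 ± 49.5) and Ralb (58.4 ± 3.79) led, and Katnal1 (1.72 ± 0.344) was last, with Cmtm6 (1.996 ± 2.70) and Arl2bp (3.46 ± 4.27) overlapping it (n = 3). Levels in different tables are shares of different libraries and carry no test.

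The relatives of the 7 genes, 116 genes in 7 lists of families, partners and pathways, were read for whether the neighbours of a gene moved with it. Rp2 of the Arl2 list was read under its synonym Rp2h. In the first knockdown 111 were tested, 0 were called higher and 1 lower by limma, a share of 0.901% where 1.93% of all genes were called, and at an unadjusted p under 0.05 limma had 2609 of all genes. The exception was Rasl11b, a Ras-like GTPase, which stood at 392 to 793 (median 597) in shLuciferase and at 171 to 266 (median 206) in libraries labelled shTet2. Rasl11b fell by 1.43 on the log2 scale (SE 0.22, adjusted p = 0.000829 in limma) while Diras2 of the same list was higher. In each other list the gene with the smallest p was not called, among them Katna1 (0.94, adjusted p = 0.249), Unc119 (-1.83, adjusted p = 0.145), Cd274 (1.398, adjusted p = 0.563), Dusp18 (-0.64, adjusted p = 0.232) and Klf7 (0.44, adjusted p = 0.265, all in limma).

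**Figure D4:**
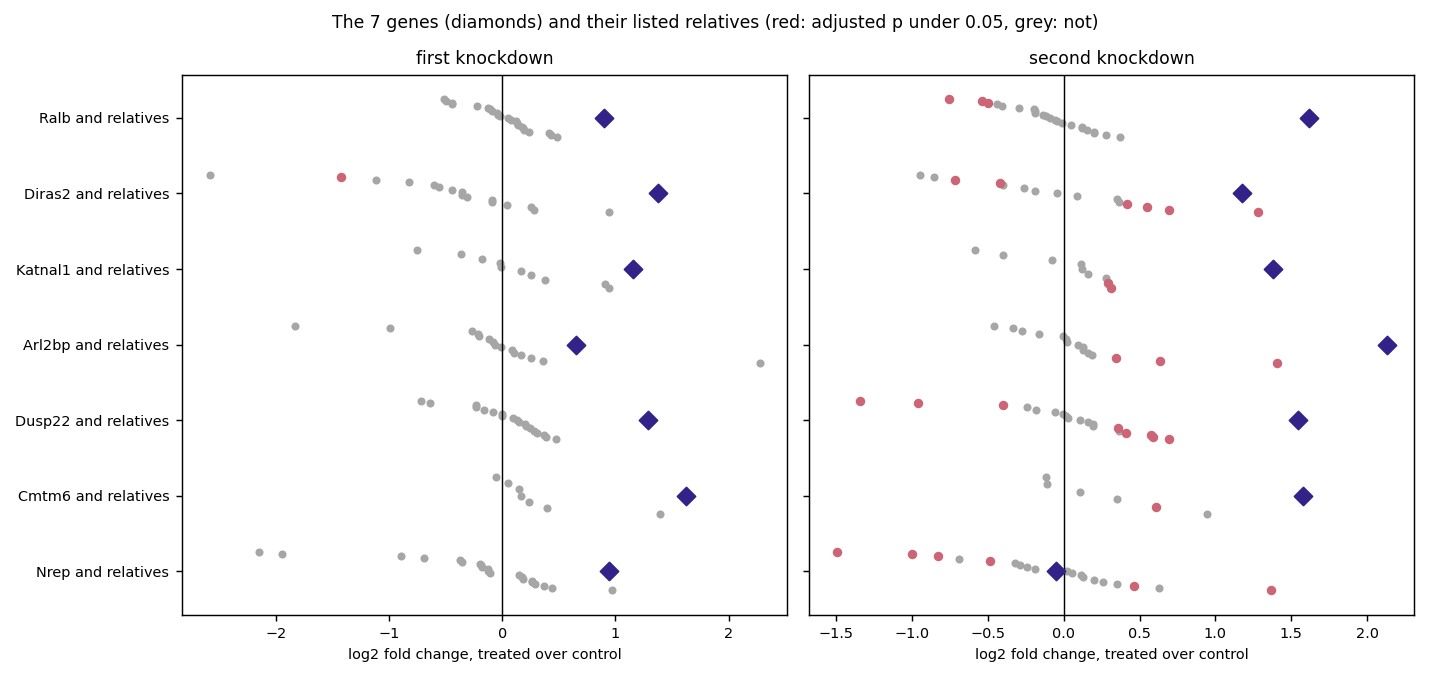
Log2 fold change, treated over control, of each of the 7 genes (diamonds) and of its listed relatives (points, red where the adjusted p of limma was under 0.05) in the first (left) and the second knockdown (right). In the first knockdown 1 relative is red and in the second 29 of 106 are, on both sides of 0.

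Of 106 relatives tested in the second knockdown 17 were called higher and 12 lower. That is 27.4%, where 25.9% of all genes were called, so the relatives as a group were called about as often as any gene, and their median log2 fold change was 0.03 against -0.02 over all genes. Of the 23 tested genes of the Ral module none was called higher and 3 were called lower. These were Reps2, an endocytic protein of the Ral pathway (-0.75, adjusted p = 0.0127), Ralgds, an exchange factor that activates Ral (-0.50, adjusted p = 0.0257), and the exocyst subunit Exoc4 (-0.54, adjusted p = 0.0451, all in limma). The Ralgds call was lost without shLuc libraries 1 or 2 or Tet2 KD library 6, and the Exoc4 call in 11 of 22 alternatives, among them the removal of any of shLuc 1, 2, 3 and 9 and Tet2 KD 4, 6, 10 and 12. Libraries of this experiment are numbered as in the column names. Rala, the close paralogue of Ralb, stood at 1096 to 1324 in shLuc and 1144 to 1834 in Tet2 KD libraries (log2 fold change 0.28, SE 0.12, adjusted p = 0.103 in limma), and in the first knockdown its log2 fold change was -0.12 (adjusted p = 0.731 in limma).

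Of the 15 genes of the Arl2 list in the second knockdown 3 were called higher and none lower. That is 20% called, and 40% were called in the Ras-like list below, where 25.9% of all genes were. Unc119b, which carries lipid-modified proteins, ran from 166 to 596 (median 362) in shLuc and from 462 to 1299 (median 1070.0) in Tet2 KD libraries (1.41, adjusted p = 0.000466), and the tubulin cofactor Tbcc rose by 0.64 (adjusted p = 0.000864). Arl2 itself, the partner that Arl2bp is named for, had a log2 fold change of 0.34 (adjusted p = 0.0363, all in limma). The Arl2 call was lost with library totals and without any of shLuc libraries 1, 2, 3 and 7 and Tet2 KD libraries 4, 6, 10 and 12. Of 15 tested genes of the Ras-like list 4 were called higher and 2 lower. Diras1, the close paralogue of Diras2, ran from 400.4 to 536 in shLuc and from 536 to 953 in Tet2 KD libraries, a range that began just below the highest control (0.70, adjusted p = 0.000613). Rheb, the activator of mTORC1 signalling, rose by 0.55 (adjusted p = 0.00261), and Rhebl1 fell by 0.71 on the log2 scale (adjusted p = 0.00103, all in limma).

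Of 19 tested phosphatases and JNK genes 5 were called higher and 3 lower in the second knockdown. That is 42.1% called, where 25.9% of all genes were. In the lists below 22.2% of the severing proteins were called, 16.7% of the Cmtm6 relatives and 31.6% of the TGF-beta and regeneration list. Dusp18 ran from 220.4 to 316 (median 242) in shLuc and from 77.7 to 125 (median 98.1) in Tet2 KD libraries, the opposite direction to Dusp22 (-1.34, SE 0.14, adjusted p = 1.49e-06 in limma). Dusp3 (0.69, adjusted p = 3.53e-05) and Dusp14 (0.57, adjusted p = 0.000477, both in limma) rose. Of 9 tested severing proteins 2 were called higher and none lower. Vps4a was among them (0.29, adjusted p = 0.0242 in limma), and its call was lost without shLuc libraries 1 or 9 or Tet2 KD library 4. Of the 6 tested relatives of Cmtm6, Cklf alone was called (0.61, adjusted p = 0.0296 in limma), and not without shLuc libraries 3, 7 or 9 or Tet2 KD libraries 4 or 10. Of 19 tested genes of the TGF-beta and regeneration list 2 rose and 4 fell. The injury-response factor Atf3 ran from 28.4 to 55.2 in shLuc and from 75.9 to 139.9 in Tet2 KD libraries (1.36, adjusted p = 0.000129) and Klf6 rose by 0.46 (adjusted p = 0.000418), while Sox11, a factor of axon growth, fell by 1.496 on the log2 scale (adjusted p = 2.31e-05, all in limma).

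In the nuclei 108 relatives were tested and limma called none, as it called none of all genes. In the overexpression experiment 114 were tested and 14 were called higher and 9 lower, 20.2% where 9.96% of all genes were called, with a median of -0.39 against -0.75 over all genes. With library totals the split was 11 higher and 19 lower. It was 6 and 0 without GFP library 5, 10 and 2 without GFP library 4 and 9 and 6 without Tet2 OE library 4. With the column number as a block no gene was called by limma, relatives included, though 2846 of all genes had an unadjusted p under 0.05. Of the 23 genes of the Ral module 7 rose and 1 fell. Ralgps2, an exchange factor for Ral, stood at 665, 1425 and 1918 in GFP libraries, from lowest to highest, and at 15428, 20594 and 25555 in Tet2 OE libraries (4.04, SE 0.46, adjusted p = 3.71e-05 in limma). Tbk1, a kinase effector of Ralb, stood at 126, 133 and 146 in GFP and at 1154, 1267 and 1821 in Tet2 OE libraries (3.35, SE 0.52, adjusted p = 0.00043 in limma). Ralgapa2, a subunit of the Ral-inactivating complex, had a log2 fold change of 1.84 (adjusted p = 0.0154 in limma) and lost its call with library totals, without GFP library 5 and without Tet2 OE library 6.

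Rala stood at 1753, 1826 and 3022 in GFP and at 4228, 6154 and 7210.0 in Tet2 OE libraries, above all controls, where Ralb stood below them (1.43, SE 0.43, adjusted p = 0.0438 in limma). That call was lost in 8 of 16 alternatives, which were the block, library totals, upper-quartile factors and the removal of any library but GFP 6. The difference between Rala and Ralb was not tested. Other relatives that rose, and were called in 15 of 16 alternatives (all but the block), were the tubulin cofactor-like Tbcel (3.28, adjusted p = 0.000164), the neuronal JNK gene Mapk10 (2.79, adjusted p = 0.00284), Klf6 (2.32, adjusted p = 0.00199) and the latent TGF-beta binding Ltbp1 (2.84, adjusted p = 0.00392, all in limma). Mapk8 (1.96, adjusted p = 0.0114 in limma) lost its call without GFP library 5 or Tet2 OE library 3.

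Relatives lower in Tet2 OE libraries were Diras1 (-3.85, adjusted p = 0.00878) and Fignl2 (-5.64, adjusted p = 0.0213), which lost their calls without GFP libraries 4 or 5. Unc119b (-3.90, adjusted p = 0.0262) and Mapk8ip2 (-2.59, adjusted p = 0.0118) lost theirs without GFP libraries 4 or 5 or Tet2 OE library 4, and Rasl10b (-2.84, adjusted p = 0.0266) without GFP libraries 4 or 5 or Tet2 OE library 3. Cmtm3 (-4.50, adjusted p = 0.0102) lost its call without any 1 of the GFP libraries, and Klf7 (-1.86, adjusted p = 0.0234, all in limma) without GFP libraries 5 or 6 or Tet2 OE libraries 4 or 6. Diras1 and Unc119b, which were higher in the second knockdown, were thus lower here. Klf6 was called higher in both of these experiments (0.46 in the second knockdown and 2.32 here).

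Within groups the 7 genes did not vary as a set. Over the 24 knockdown libraries, the deviations of log2(value + 1) from the group mean correlated between 2 of the 7 genes with a median Pearson r of -0.10 over the 21 pairs, from -0.47 to 0.61, and 8 of the 21 were positive. The highest was Dusp22 with Arl2bp. Tet2 deviated from its group mean with r of -0.38 to 0.31 against the 7. These libraries share size factors and depth, so the values are a description. By the same measure over 7855 genes with a mean of 100 or more, the genes of most like pattern were Cdc42ep3 (0.88) and Cygb (0.82) for Ralb, Tenm3 (0.84) and Trim37 (0.80) for Diras2, and Fam193b (0.94) and Ankrd13b (0.89) for Arl2bp. They were Gtf2ird2 (0.80) and Ankrd52 (0.79) for Katnal1, Ube2z (0.80) and Noc4l (0.79) for Dusp22, Fbxo18 (0.88) and Trim35 (0.87) for Cmtm6, and Eif4e (0.91) and Hrsp12 (0.89) for Nrep. The search over 7855 genes picked high values of r, so their size is no evidence of a link. Spearman correlations of these pairs ran from 0.65 (Ankrd52) to 0.88 (Eif4e). For Fam193b the Spearman value was 0.79, with r of 0.97 in the first knockdown and 0.67 in the second. A gene alike within groups was not always alike between them, since Tenm3, a teneurin adhesion gene, was lower in both knockdowns (-1.64 and -1.09) where Diras2 was higher.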

How the data were processed

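RNA was measured in 37 libraries in 4 tables of 24411 genes. Per the labels, RNA came from TRIzol for the nuclei and the first knockdown and from RNeasy columns for the others. The submitters' processing notes name DESeq2, RSEM, STAR and the build mm10, without roles or versions. The authors deposited a normalized count per library (signal): 100% of values, within 0.01 reads, were an integer times 1 factor of the library, and dividing by it gave the reads. The deposited log2 fold change, its standard error, the Wald score and the p-value are DESeq2 output per the file headers, and the log2 fold change was turned to treated over control.

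The members and all gene lists were chosen with earlier results of these data known. Each experiment was fitted alone with limma 3.58.1 in R 4.3.3 on log2(value + 1), for genes with a mean of 0.5 or more, with a trend and Benjamini-Hochberg adjustment over all genes kept; genes were called at 0.05, two-sided. The added 1 makes differences of weakly expressed genes smaller. SE is the standard error of a fold change. The fit was tested on simulated data with 200 changed genes. Alternatives were pseudocounts, filters, TMM, upper-quartile and library-total scaling, edgeR 4.0.16 and DESeq2 1.42.0 on recovered reads, leaving out each library, and, in the first knockdown, the replicate number as a block; blocks by column number were added after seeing the data. Columns of the second knockdown and of the overexpression experiment carry numbers that differ from the titles, so they were mapped to groups and are named by the column's number. Named relatives were, per list and experiment, up to 3 called genes with the smallest p, or the 1 with the smallest p; a few items that this rule names are not reported here. For genes of like pattern, the 2 with the highest r were named. Sequences are RefSeq promoter windows of GRCm38.p6.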

Additional observations from a re-analysis of the deposited data

Results flagged for a closer look

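Within groups of 4 to 10 libraries, the 35 sets of values of the 7 genes were searched for a library far from the others by Dixon's ratio of gap to range, and 3 stood apart; chance flags about 1 in 20 such sets. Cmtm6 was 115 in the WT nuclei library numbered 5, the lowest, where the other 3 lay between 232 and 257. Arl2bp was 504 in the shLuciferase library numbered 4, the highest, where the others lay between 67.7 and 207. Dusp22 was 58.5 in the shLuc library numbered 3, the lowest, where the others lay between 86.9 and 103.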

How the results depend on the processing

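Over the alternatives run, the members' fold changes in both knockdowns kept their direction, except Nrep in the second, which ran from -0.18 to 0.12 and was not called. The count of members called in the nuclei stayed at 0. In the first knockdown limma called 354 genes, DESeq2 824 and limma with the replicate number as a block 206. Same-numbered libraries did not deviate together there (r from -0.18 to 0.05 over 6 pairs, none best with its own number), so the numbers do not pair the samples; the block changed no member's direction. No shared numbers link the groups of the nuclei or the second knockdown. Added after seeing the data were a block of column numbers up to 6 against over 6 in the second knockdown (4268 genes and 29 relatives called) and a replicate block by column number in the overexpression experiment, where GFP and Tet2 OE share numbers 4 and 6. The latter compares 4 libraries with 1 residual degree of freedom and called 0 genes, 0 relatives and 0 members. Leaving out 1 library gave 222 to 354 genes (222 without shLuciferase 3, 234 without shTet2 4). DESeq2 called 2 relatives there, not 1. In the second knockdown leaving out 1 library gave 3529 to 4678 genes and 23 to 35 relatives. In the overexpression experiment limma called 2230 genes (1386 higher, 844 lower) and DESeq2 4083 (1862 and 2221); TMM gave 1578 and 644, library totals 861 and 1799, and leaving out 1 library 642 to 3004 (642 without GFP 5). Relatives called were 23, with DESeq2 38 and leaving out 1 library 6 to 24 (6 without GFP 5). Members called were 1, with DESeq2 2 and leaving out 1 library 0 to 2 (0 without GFP 5 or Tet2 OE 4, 2 without GFP 4).

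Uncalled fold changes turned sign. In the nuclei these were Cmtm6 (library totals -0.064, leaving out 1 library -0.27 to 0.24), Dusp22 (library totals -0.027, leaving out 1 library -0.21 to 0.29), Diras2 (leaving out 1 library -0.041 to 0.38) and Ralb (pseudocount of 5 0.0075, TMM 0.0084, upper-quartile factors 0.038, leaving out 1 library -0.52 to 0.87). In the overexpression experiment these were Cmtm6 (pseudocount of 5 -0.34, library totals -0.44, edgeR -1.03, DESeq2 -1.31, leaving out 1 library -2.32 to 1.99), Dusp22 (library totals -0.18) and Diras2 (library totals -0.54, leaving out 1 library -0.16 to 0.49). The median of all genes there was -0.75, and -0.58 with TMM, -0.82 with upper-quartile factors and -1.31 with library totals. Count-based tests were not run in the nuclei, where the factor of 1 WT library lay too close to 1 for its reads to be recovered with certainty. The causes were not tested.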
